A study of Mus musculus with 16 samples.

Results

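Of the 55487 genes in the table, 9 were taken by symbol as the junction genes of brain endothelium. The tight junction was represented by the claudin *Cldn5*, by *Ocln*, by the immunoglobulin-like adhesion proteins *F11r*, *Jam2* and *Esam*, by the cytoplasmic adaptors *Tjp1* and *Cgn*, and by *Lsr* of the tricellular contacts. The adherens junction was represented by *Cdh5*. All 9 were above the filter on low values, which left 18859 genes for testing, and the lowest value of any of them in any mouse was 3.42 CPM (reads of a gene for every 1000000 reads on genes), which corresponded to 74 reads.

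Endothelial cells of brain capillaries are held together by tight junctions, which close the gap between neighbouring cells to small solutes, and by adherens junctions, which join the cells mechanically and signal to the cytoskeleton. Claudins and occludin span the membrane and are tied to actin through ZO proteins and cingulin, while VE-cadherin binds its own kind on the next cell and holds catenins inside. The blood-brain barrier depends on this complex, and lipopolysaccharide (LPS), a component of the outer membrane of Gram-negative bacteria, is widely used to open it through systemic inflammation.

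Cortex was collected from male C57Bl6 mice, wild type and 2 months old. Each mouse had received intraperitoneal LPS at 2 mg/kg, or PBS as the vehicle, on 2 days in a row, and tissue was taken on day 3. Injections were given either at ZT1, the morning, or at ZT13, the evening (zeitgeber time, the hours since lights came on), so that time of day (TOD) here covers both the injection and the harvest. The groups were ZT1 PBS (n = 3), ZT1 LPS (n = 5), ZT13 PBS (n = 3) and ZT13 LPS (n = 5), and every sample was 1 cortex of a wild-type male. Nothing in the labels tells whether the mice of a group were housed or prepared apart, so p-values measure the spread between these samples.

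The libraries held 20251840 to 29112758 reads on genes. *Gfap*, which astrocytes raise in inflammation, lay between 111 and 123 CPM in the 6 PBS cortices and between 572 and 1134 CPM in the 10 LPS cortices. The 6 neuronal markers summed to 4432 to 4572 CPM in ZT1 PBS and 4167 to 4418 CPM in ZT1 LPS mice, and to 4530 to 4782 CPM in ZT13 PBS and 4101 to 4321 CPM in ZT13 LPS mice, so that the LPS mice were lower without overlap at both times. The choroid plexus gene *Ttr* ran from 4.57 to 875 CPM, under 25 CPM in 6 mice and over 100 CPM in 10 mice, with low and high mice in every group. With *Ttr* as a covariate, a choice made after seeing the data, 5 junction genes were called at ZT1 and 8 at ZT13, as without it. The lowest of the ZT1 LPS mice in endothelial markers was replicate 2, with a mean log2 of 3.65 over 18 markers, against 4.02 to 4.35 in the other ZT1 LPS mice. That mouse was also the lowest of its group for 7 of the 9 junction genes, so results are given without it where it changed a call.

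The upstream sequences of *Cldn5* and *Lsr*, the junction genes with the largest differences between ZT1 and ZT13 in PBS mice, and of *Cgn*, which passed the test in no comparison of CPM levels, are set side by side to show what the 3 starts hold. They are the 250 bases before the RefSeq start on GRCm38.p6, read 5′ to 3′ on the gene's strand, with matches to any of the searched motifs in capitals.
Cldn5, chr16:18776597-18776846, plus strand: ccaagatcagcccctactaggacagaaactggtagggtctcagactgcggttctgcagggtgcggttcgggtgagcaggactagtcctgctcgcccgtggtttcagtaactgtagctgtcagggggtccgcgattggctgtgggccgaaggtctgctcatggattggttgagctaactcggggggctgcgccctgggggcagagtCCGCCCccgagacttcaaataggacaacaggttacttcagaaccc
Lsr, chr7:30973470-30973719, minus strand: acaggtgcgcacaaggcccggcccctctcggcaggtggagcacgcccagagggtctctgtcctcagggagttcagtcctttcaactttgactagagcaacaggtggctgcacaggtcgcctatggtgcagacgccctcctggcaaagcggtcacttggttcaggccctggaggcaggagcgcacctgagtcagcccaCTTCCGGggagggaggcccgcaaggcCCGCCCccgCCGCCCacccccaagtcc
Cgn, chr3:94786483-94786732, minus strand: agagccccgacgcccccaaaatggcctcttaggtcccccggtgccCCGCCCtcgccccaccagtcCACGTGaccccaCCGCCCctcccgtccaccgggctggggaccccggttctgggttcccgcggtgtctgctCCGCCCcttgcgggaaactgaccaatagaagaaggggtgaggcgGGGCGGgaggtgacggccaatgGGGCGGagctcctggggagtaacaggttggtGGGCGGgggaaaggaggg

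Both strands were searched for 6 motifs, and no match overlapped a match to another motif. The GC box (GGGCGG) was in the windows of all 6 junction genes with a RefSeq entry (*Cldn5*, *Ocln*, *F11r*, *Tjp1*, *Cgn* and *Lsr*) and in 32.7% of all 32851 windows of this length. Those junction gene windows were 59.6% to 70.4% G and C, against a median of 52.4% over all windows, and base composition was not matched. The E-box CACGTG, which the clock proteins CLOCK and BMAL1 bind among other factors, was found in the *Cgn* window 185 to 180 bases before the start and in 6.02% of all windows. It was not in the *Cldn5* or *Lsr* windows, nor was the D-box TTATGTAA (0.819% of all windows). The ETS element (CCGGAAG, 6.91% of all windows) was in the *Lsr* window. The STAT element (TTCNNNGAA, 7.02%) and the SOX element (ACAATGG, 3.02%) had no match in the windows of the junction genes. These letters describe 250 bases and do not show binding.

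Most of the junction genes rose with LPS, and at both times of day the LPS mice were above the PBS mice for *F11r*, *Cldn5*, *Cdh5*, *Lsr* and *Esam*. At ZT1 5 of the 9 rose and none fell (limma, adjusted p under 0.05), where 11.1% of all genes tested rose and 5.15% fell. At ZT13 7 rose, *Ocln* and *Tjp1* being added, and *Jam2* fell, where 19.2% of all genes rose and 9.4% fell. The median log2 difference of the 9 genes was 0.69 at ZT1 and 1.06 at ZT13, beside medians of 0.04 and 0.05 over all genes tested. The PBS and LPS mice did not overlap for 5 junction genes at ZT1, as for 24.3% of all genes, and for 8 at ZT13, as for 31.2%. Rescaling by median-of-ratios factors left these counts of junction genes as they were, although over all genes the share of calls that rose went from 68.2% to 54.4% at ZT1 and from 67.2% to 50.1% at ZT13. With quantile normalization that share was 51.1% and 45.0%, and *Jam2* also fell at ZT1 while *Ocln* did not pass at ZT13. In whole cortex more endothelial cells, or more of their RNA in the sample, cannot be told apart from more RNA of these genes in each cell.

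**Figure D1:**
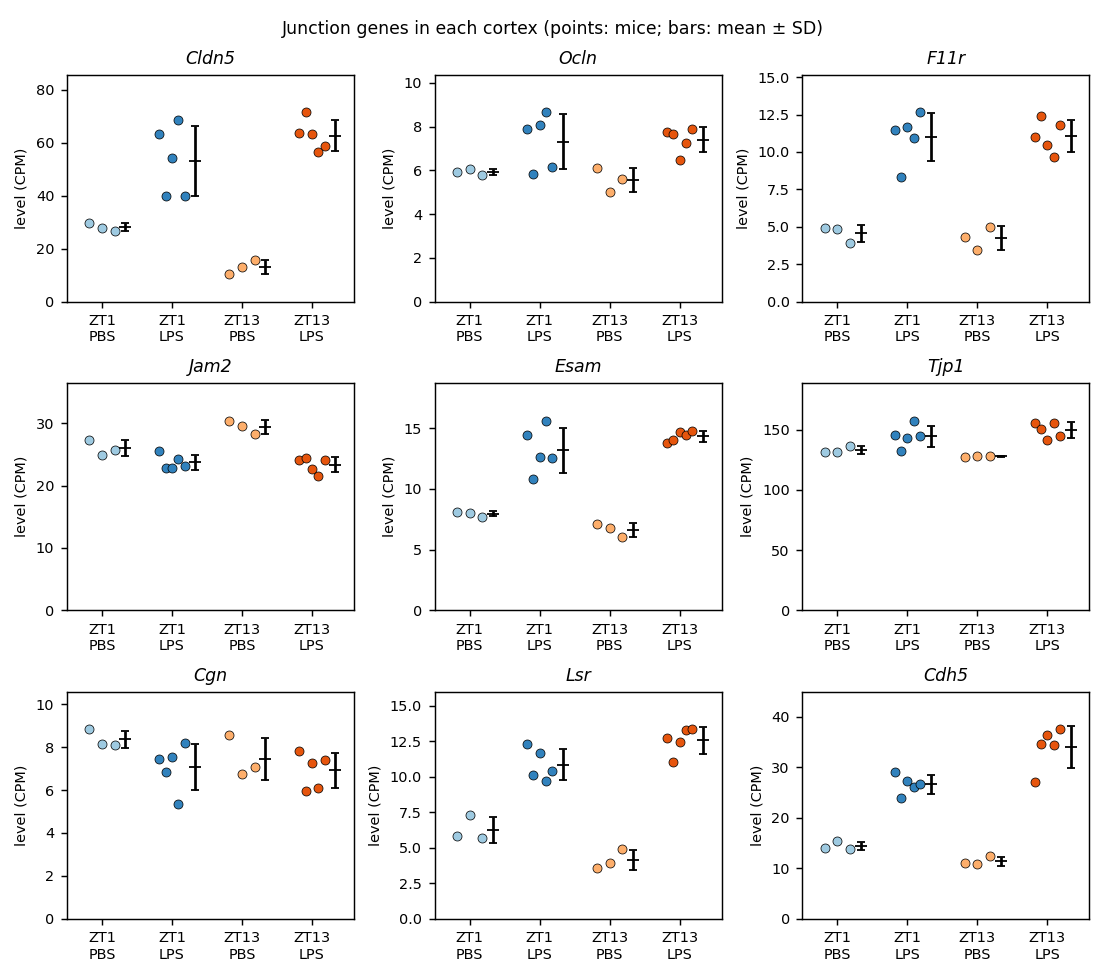
Level in CPM (y axis, from 0) of each of the 9 junction genes in the 4 groups (x axis), with a point for each mouse and the group mean ± SD beside the points. The ZT13 PBS mice are the lowest for Cldn5 at 10.4 to 15.5 CPM, and every LPS mouse lies above every PBS mouse for Cldn5, Cdh5, F11r, Esam and Lsr.

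*Cldn5* (ENSMUSG00000041378, chromosome 16, 18776847 to 18778262, plus strand, 1 exon) encodes claudin 5, the main claudin of brain capillaries. In ZT1 PBS mice it was at 29.7, 27.6 and 26.7 CPM, and in ZT1 LPS mice at 63.4, 39.7, 54.2, 68.4 and 39.7 CPM. In ZT13 PBS mice it was at 10.4, 13.04 and 15.5 CPM, and in ZT13 LPS mice at 63.5, 71.4, 63.1, 56.4 and 58.6 CPM. The groups did not overlap at either time, the ZT1 LPS mice were spread widely (coefficient of variation 24.9%), and the ZT13 PBS mice stood lowest of all. The log2 difference between LPS and PBS was 0.88 (SE 0.17, limma adjusted p = 0.0044) at ZT1 and 2.24 (SE 0.10, adjusted p = 2.8e-09) at ZT13, that is 1.84-fold and 4.72-fold on the scale of log2(CPM + 0.5). The call at ZT1 was lost when all genes were tested without a filter (adjusted p = 0.070).

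*Ocln* (ENSMUSG00000021638, chromosome 13, 100496507 to 100552718, minus strand) encodes occludin, a membrane-spanning partner of the claudins. It was at 5.92, 6.07 and 5.77 CPM in ZT1 PBS mice and at 7.88, 5.82, 8.07, 8.65 and 6.16 CPM in ZT1 LPS mice. It was at 6.11, 4.995 and 5.60 CPM in ZT13 PBS mice and at 7.75, 7.65, 6.46, 7.24 and 7.88 CPM in ZT13 LPS mice. The groups overlapped at ZT1 through LPS replicate 2 and were apart at ZT13. The difference was 0.27 at ZT1 (SE 0.13, limma adjusted p = 0.19) and 0.38 at ZT13 (SE 0.10, adjusted p = 0.011). With sample quality weights the ZT1 difference was 0.35 and passed (adjusted p = 0.041). The ZT13 call did not hold with quantile normalization (adjusted p = 0.21) or without ZT13 PBS replicate 2 (adjusted p = 0.064).

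*F11r* (ENSMUSG00000038235, chromosome 1, 171437535 to 171464603, plus strand) encodes JAM-A, an adhesion molecule of tight junctions that is also found on leukocytes and platelets. It was at 4.93, 4.84 and 3.92 CPM in ZT1 PBS mice and at 11.5, 8.33, 11.6, 10.9 and 12.6 CPM in ZT1 LPS mice. At ZT13 the PBS mice were at 4.29, 3.42 and 5.02 CPM and the LPS mice at 11.03, 12.4, 10.48, 9.66 and 11.8 CPM. No PBS mouse reached the lowest LPS mouse at either time, and the LPS groups of both times overlapped. The log2 difference was 1.18 at ZT1 (SE 0.13, limma adjusted p = 1.3e-04), which was the largest of the 9 genes there, and 1.29 at ZT13 (SE 0.12, adjusted p = 1.7e-06).

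Since leukocytes also carry JAM-A, their markers are set beside it. The summed level of 8 neutrophil markers was 0.842 to 1.48 CPM in ZT1 PBS, 0.569 to 1.25 CPM in ZT13 PBS, 8.56 to 42.8 CPM in ZT1 LPS and 28.1 to 74.7 CPM in ZT13 LPS mice. *S100a9*, the most abundant of them in LPS mice, had a median of 9.996 CPM in ZT1 LPS and 29.2 CPM in ZT13 LPS mice. *Ly6g* and *Elane* stayed under 0.15 CPM in all ZT1 LPS mice and reached at most 0.152 and 0.168 CPM in ZT13 LPS mice. *Camp* stayed under 0.15 CPM in all ZT13 LPS mice. *Mpo* had a lower mean in LPS than in PBS mice. It was at 0.094 against 0.437 CPM at ZT1 and at 0.149 against 0.383 CPM at ZT13. The 6 platelet markers summed to 2.83 to 4.02 CPM in ZT1 PBS and 2.53 to 3.75 CPM in ZT1 LPS mice, which overlapped. At ZT13 the sums were 2.80 to 3.09 CPM in PBS and 3.17 to 4.825 CPM in LPS mice, which did not overlap. These markers did not move together, and only 1 of them, *Itga2b*, passed the filter. The ZT13 means of *Itga2b* and *Pf4* were 1.48 and 0.336 CPM in PBS and 2.36 and 0.798 CPM in LPS mice. Those of *Gp9* and *Gp1bb* went the other way, from 0.269 and 0.834 CPM to 0.092 and 0.482 CPM. *Ppbp* and *Gp6* were near 0. The part of neutrophils and platelets in the levels of *F11r* and *Esam* was not tested.

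*Jam2* (ENSMUSG00000053062, chromosome 16, 84774123 to 84825928, plus strand) encodes JAM-B, a second member of that family. It was at 27.4, 24.8 and 25.6 CPM in ZT1 PBS mice and at 25.5, 22.9, 22.9, 24.2 and 23.1 CPM in ZT1 LPS mice. It was at 30.4, 29.6 and 28.2 CPM in ZT13 PBS mice and at 24.1, 24.4, 22.6, 21.6 and 24.1 CPM in ZT13 LPS mice. The groups overlapped at ZT1, and at ZT13 all LPS mice were below all PBS mice. *Jam2* was the one junction gene that fell, by 0.33 on the log2 scale at ZT13 (SE 0.06, limma adjusted p = 7.2e-04). At ZT1 the log2 difference was -0.13 (SE 0.06, adjusted p = 0.19), which passed with quantile normalization (adjusted p = 0.039).

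*Esam* (ENSMUSG00000001946, chromosome 9, 37528078 to 37538319, plus strand) encodes an adhesion molecule of endothelial cells and platelets that sits at tight junctions. It was at 8.09, 8.05 and 7.70 CPM in ZT1 PBS mice and at 14.5, 10.8, 12.6, 15.6 and 12.6 CPM in ZT1 LPS mice. At ZT13 the PBS mice were at 7.10, 6.80 and 6.003 CPM and the LPS mice at 13.8, 14.0, 14.7, 14.5 and 14.8 CPM. Both pairs of groups were apart, with the ZT13 LPS mice close together (coefficient of variation 3.15%, against 14.1% in ZT1 LPS). The log2 difference was 0.69 at ZT1 (SE 0.11, limma adjusted p = 0.0015) and 1.06 at ZT13 (SE 0.08, adjusted p = 2e-07).

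*Tjp1* (ENSMUSG00000030516, chromosome 7, 65296165 to 65527781, minus strand) encodes ZO-1, the scaffold that ties claudins and occludin to actin and that many other cell types of the brain also use. It was at 131, 132 and 137 CPM in ZT1 PBS mice and at 146, 132, 143, 157 and 145 CPM in ZT1 LPS mice. It was at 128, 128 and 128 CPM in ZT13 PBS mice and at 156, 150.3, 141, 155 and 145 CPM in ZT13 LPS mice. LPS replicate 2 fell within the PBS range at ZT1, and the groups were apart at ZT13. The log2 difference was 0.12 at ZT1 (SE 0.05, limma adjusted p = 0.15) and 0.22 at ZT13 (SE 0.04, adjusted p = 6.6e-04). Without ZT1 LPS replicate 2 the ZT1 difference was 0.15 and passed the test (adjusted p = 0.032), as it did over all mice with sample quality weights (0.135, adjusted p = 0.046).

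*Cgn* (ENSMUSG00000068876, chromosome 3, 94760069 to 94786492, minus strand) encodes cingulin, which joins ZO-1 to actomyosin. It was at 8.83, 8.16 and 8.11 CPM in ZT1 PBS mice and at 7.46, 6.86, 7.53, 5.37 and 8.17 CPM in ZT1 LPS mice. At ZT13 the PBS mice were at 8.57, 6.76 and 7.06 CPM and the LPS mice at 7.80, 5.98, 7.28, 6.11 and 7.41 CPM. The groups overlapped at both times. The log2 difference was -0.24 at ZT1 (95% interval -0.51 to 0.03, limma adjusted p = 0.22) and -0.10 at ZT13 (95% interval -0.35 to 0.14, adjusted p = 0.55), so that a rise above 0.14 lies outside the interval at ZT13.

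*Lsr* (ENSMUSG00000001247, chromosome 7, 30957770 to 30973464, minus strand) encodes angulin-1, which marks the corners where 3 cells meet and recruits tricellulin there. It was at 5.83, 7.32 and 5.67 CPM in ZT1 PBS mice and at 12.3, 10.1, 11.7, 9.71 and 10.4 CPM in ZT1 LPS mice. It was at 3.57, 3.90 and 4.89 CPM in ZT13 PBS mice and at 12.7, 11.01, 12.5, 13.3 and 13.3 CPM in ZT13 LPS mice. The groups were apart at both times, and all ZT13 PBS mice were below all ZT1 PBS mice. The log2 difference between LPS and PBS was 0.75 at ZT1 (SE 0.11, limma adjusted p = 9.5e-04) and 1.51 at ZT13 (SE 0.10, adjusted p = 1.3e-07). On the opposite strand *Gm4673* shares 946 of the 2172 exonic bases of *Lsr*, and whether counting used strand is not given in the sources used here, so reads of the 2 genes may not have been told apart. The table lists *Gm4673* at 7.55 to 9.52 CPM in ZT1 PBS, 9.51 to 11.9 CPM in ZT1 LPS, 8.42 to 9.34 CPM in ZT13 PBS and 10.53 to 12.6 CPM in ZT13 LPS mice, and its part in the level of *Lsr* was not tested.

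*Cdh5* (ENSMUSG00000031871, chromosome 8, 104101625 to 104144511, plus strand) encodes VE-cadherin, the cadherin of endothelial adherens junctions. It was at 13.95, 15.4 and 13.9 CPM in ZT1 PBS mice and at 29.0, 24.0, 27.2, 26.0 and 26.8 CPM in ZT1 LPS mice. It was at 10.97, 10.8 and 12.4 CPM in ZT13 PBS mice and at 27.0, 34.6, 36.5, 34.5 and 37.5 CPM in ZT13 LPS mice. The PBS and LPS mice were far apart at both times, and ZT13 LPS replicate 1 was low for its group. The log2 difference was 0.86 at ZT1 (SE 0.07, limma adjusted p = 1.6e-05) and 1.53 at ZT13 (SE 0.09, adjusted p = 3.6e-08).

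**Figure D2:**
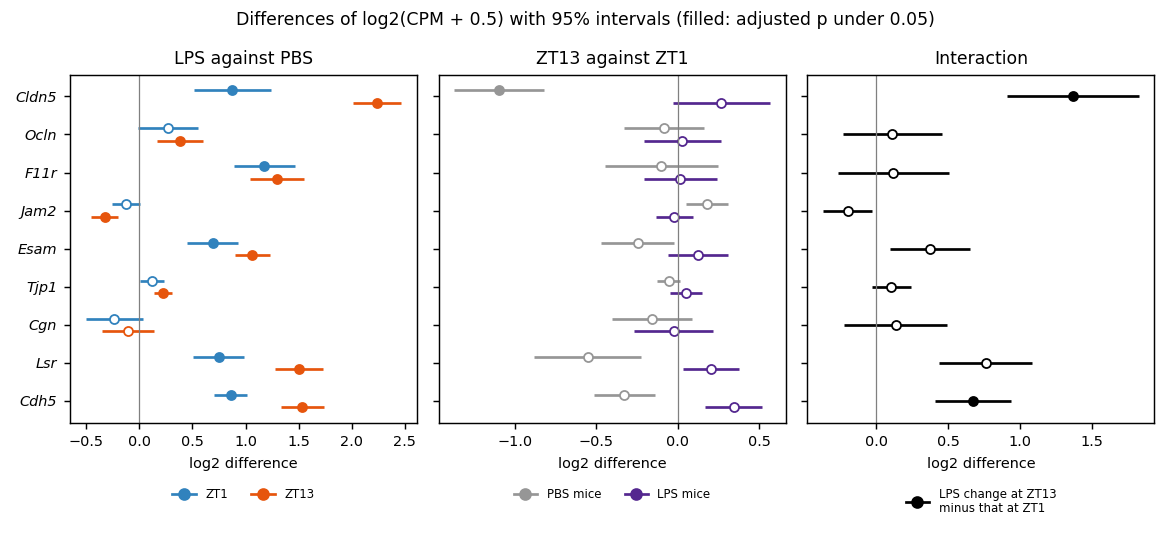
Log2 difference of each junction gene on the scale of log2(CPM + 0.5) (x axis) with its 95% interval, for LPS against PBS at each time, for ZT13 against ZT1 within each treatment, and for the interaction. Filled points passed an adjusted p of 0.05: 5 and 8 genes for LPS at ZT1 and ZT13, Cldn5 alone between the PBS groups, none between the LPS groups, and Cldn5 and Cdh5 for the interaction.

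The comparison of the LPS groups asks whether the inflamed cortex differs between evening and morning. None of the 9 passed the test (limma), where 0.0212% of all genes did. At an unadjusted p under 0.05 there were 2 of the 9, *Cdh5* and *Lsr*, and 1998 genes in all. The means of *Cdh5* were 34.0 ± 4.1 CPM in ZT13 LPS and 26.6 ± 1.8 CPM in ZT1 LPS mice (SD, n = 5 each), a log2 difference of 0.34 (SE 0.08, limma adjusted p = 0.14). Its call depended on the fit, since the adjusted p was 0.049 in a single fit of all 16 mice, 0.043 with sample quality weights and 0.045 without ZT1 LPS replicate 1. Over all genes those fits called 122, 225 and 345 genes, where the main fit called 4. *Cldn5* differed by 0.27 (95% interval -0.03 to 0.56) and *Lsr* by 0.21 (95% interval 0.03 to 0.38, limma adjusted p = 0.37). The other 6 genes differed by 0.13 or less in either direction, with intervals that lay within -0.27 and 0.31, so differences beyond these bounds lie outside their intervals.

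Between the PBS groups *Cldn5* was lower in every ZT13 mouse than in every ZT1 mouse, at a mean of 13 ± 2.6 against 28.0 ± 1.5 CPM (SD, n = 3 each). It was the only junction gene called (1 of 9 lower, none higher, where 0.217% of all genes were lower and 0.302% higher). The log2 difference was -1.10 (SE 0.12, limma adjusted p = 0.0085). The call depended on single mice and on the variance model. The adjusted p was 0.19 without a filter on low values, 0.15 without the intensity trend and at most 0.054 when 1 mouse was left out, and the call was lost without ZT1 PBS replicate 1, ZT1 PBS replicate 2 or ZT13 PBS replicate 2. The log2 difference in those left-out fits stayed between -1.23 and -0.95.

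The PBS groups of the other junction genes lay closer together. *Lsr* differed by -0.55 (SE 0.15, limma adjusted p = 0.16), *Cdh5* by -0.33 (SE 0.08, adjusted p = 0.14) and *Esam* by -0.25 (SE 0.10, adjusted p = 0.33). *Jam2* differed in the other direction, by 0.18 (SE 0.06, adjusted p = 0.24). Together with *Cldn5* and *Tjp1*, these made 6 of 9 genes with ZT1 and ZT13 PBS mice that did not overlap, as for 18.7% of all genes. The difference of *Tjp1* was small, at -0.06 (SE 0.03, limma adjusted p = 0.50), with 128.3 CPM in the highest ZT13 and 131.2 CPM in the lowest ZT1 mouse.

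The interaction asks whether the difference between LPS and PBS changed with TOD. It passed for *Cldn5*, where the log2 difference at ZT13 was larger by 1.36 (SE 0.22, limma adjusted p = 0.013), and for *Cdh5*, where it was larger by 0.67 (SE 0.13, adjusted p = 0.036), that is for 2 of 9 genes, where 0.122% of all genes passed in that direction and 0.0371% in the other. *Lsr* had a larger value than *Cdh5*, 0.76, with a larger error (SE 0.15, adjusted p = 0.063). It passed with median-of-ratios factors (adjusted p = 0.048), sample quality weights (0.024) and *Ttr* as a covariate (0.015). The intervals of *Ocln*, *F11r*, *Tjp1* and *Cgn* contained 0, and *Esam* (0.37, SE 0.13, adjusted p = 0.35) and *Jam2* (-0.20, SE 0.08, adjusted p = 0.43) did not pass.

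Each interaction is the ZT13-to-ZT1 difference in LPS mice less that in PBS mice, so these comparisons share their mice with it and are its parts. For *Cldn5* the parts were 0.27 in LPS mice and -1.10 in PBS mice, and for *Cdh5* they were 0.34 and -0.33. For *Lsr* they were 0.21 and -0.55. Thus the PBS mice made up the larger part for *Cldn5* and *Lsr*, and both parts were of one size for *Cdh5*. The call of *Cldn5* was lost without ZT1 PBS replicate 1 or ZT13 PBS replicate 2 (adjusted p up to 0.051), without a filter on low values (0.068) and without the intensity trend (0.073). That of *Cdh5* held in 3 of the 16 fits that left out a mouse (adjusted p 0.0034 to 0.14). Without ZT1 LPS replicate 2, for example, the value was 0.635 (adjusted p = 0.052). The call was also lost without a filter (0.12), without the trend (0.11) and with quantile normalization (0.059).

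Endothelial cells of the cortex were represented by 18 markers that include none of the 9 junction genes. The lowest of them was *Ecscr*, at 0.888 to 1.6 CPM in ZT1 PBS and 0.925 to 1.71 CPM in ZT13 PBS mice. The mean log2(CPM + 0.5) of the 18 markers was 3.37 ± 0.01 in ZT1 PBS and 4.11 ± 0.29 in ZT1 LPS mice (SD). It was 3.23 ± 0.09 in ZT13 PBS and 4.44 ± 0.05 in ZT13 LPS mice. In the same fits 14 of the 18 rose with LPS at ZT1, and 16 rose and 1 (*Itm2a*) fell at ZT13. Of all genes tested, 11.1% rose and 5.15% fell at ZT1, and 19.2% rose and 9.4% fell at ZT13. The median log2 difference of the markers was 0.73 at ZT1 and 1.24 at ZT13. It was 0.69 and 1.06 for the junction genes and 0.04 and 0.05 over all genes tested. Single markers ran from -0.85 (*Itm2a*) to 2.10 (*Cd93*) at ZT1 and from -0.84 to 3.18 at ZT13. The mean thus joins markers that differed with LPS to unlike degrees and is not a count of endothelial cells. Each junction gene was also measured against the marker mean of its own cortex.

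Against the endothelial markers *Cldn5*, *Cdh5*, *Lsr* and *Esam* differed between LPS and PBS mice at ZT1 by 0.14 (SE 0.20), 0.12 (SE 0.20), 0.01 (SE 0.20) and -0.05 (SE 0.20) on the log2 scale, none of which passed the test. *F11r* rose against them by 0.44 (SE 0.20, limma adjusted p = 0.038), in a fit where 2.16% of all genes did so. At ZT13 *Cldn5* rose against the markers by 1.03 (SE 0.09, adjusted p = 3.1e-09), *Cdh5* by 0.32 (SE 0.09, adjusted p = 0.0024) and *Lsr* by 0.30 (SE 0.11, adjusted p = 0.018), in a fit where 2.23% of all genes did so, while *Esam* at -0.15 (SE 0.10) and *F11r* at 0.08 (SE 0.11) did not pass. In these fits 85.2% of all genes were called lower at ZT1 and 94.7% at ZT13. With so many calls the adjustment over all genes is slight, so the calls of *F11r* and *Lsr* are weaker than in the main fit.

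*Jam2*, *Cgn*, *Tjp1* and *Ocln* were lower against the markers in LPS than in PBS mice at both times, with log2 differences of -0.87, -0.98, -0.62 and -0.47 at ZT1 and of -1.54, -1.31, -0.99 and -0.83 at ZT13. All 8 values passed the test, but so did 85.2% of all genes at ZT1 and 94.7% at ZT13, because the scale itself moved: the median of all genes was -0.70 and -1.16 on it.

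**Figure D3:**
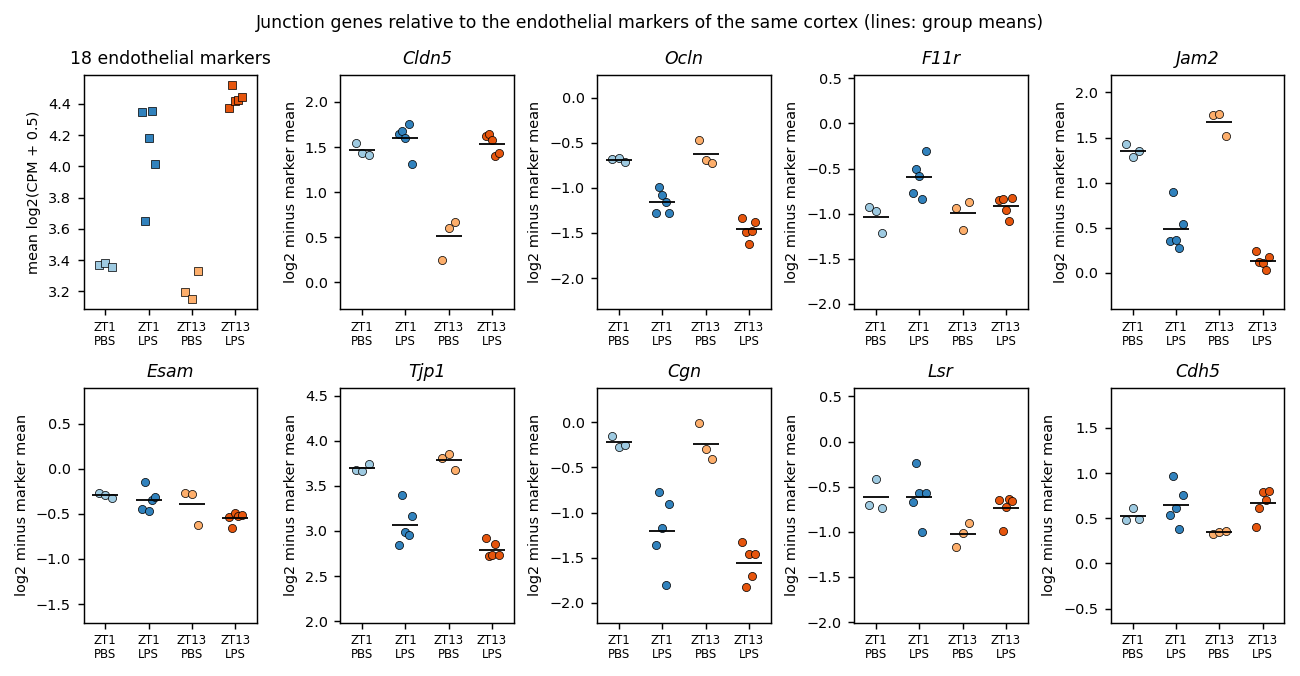
Mean log2(CPM + 0.5) of 18 endothelial markers in each mouse (first panel), and the log2 level of each junction gene minus that mean in the same mouse (other panels, each spanning the same height). The ZT13 PBS mice are the lowest for Cldn5, and Jam2, Cgn, Tjp1 and Ocln are lower in LPS than in PBS mice on this scale, as were most genes tested.

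The PBS difference of *Cldn5* was of similar size on this scale, at -0.95 (SE 0.11, limma adjusted p = 1.4e-04, where 0.164% of all genes were lower). *Jam2* was 0.32 higher at ZT13 than at ZT1 in PBS mice (SE 0.09, adjusted p = 0.043, where 5.21% of all genes were higher). For the interaction *Cldn5* passed at 0.89 (SE 0.19, adjusted p = 0.040, where 0.0106% of all genes were higher and 0.101% lower), and *Cdh5* did not (0.20, SE 0.20, adjusted p = 0.37). Between the LPS groups no junction gene passed (0.228% of all genes were higher and 0.758% lower), and *Cldn5* was at -0.06 (SE 0.14). In the main fit, without centring, 5 of the 18 markers had a positive interaction of their own (*Pecam1*, *Eng*, *Egfl7*, *Cd93* and *Sox18*). In that fit 0.122% of all genes passed in that direction and 0.0371% in the other.

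Per kilobase of exon *Cldn5* had the highest level of the 9 in 3 of the 4 groups. In ZT1 PBS mice it stood at 19.8 ± 1.1 CPM per kb and *Tjp1* at 17.0, and in ZT13 PBS mice *Tjp1* stood at 16.4 and *Cldn5* at 9.18 ± 1.82, without overlap in either case. In LPS mice *Cldn5* was at 37.5 ± 9.4 (ZT1) and 44.2 ± 4.1 (ZT13) CPM per kb, and *Tjp1* at 18.5 and 19.2. *Jam2* came next after these in both PBS groups, at 4.29 and 4.86 CPM per kb. In both LPS groups, at 3.92 and 3.86, it came after *Cdh5*, *Lsr*, *Esam* and *F11r* as well.

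At the low end the ranges of neighbours overlapped. *Cgn* had the lowest mean in every group, from 1.15 to 1.39 CPM per kb, and overlapped *Ocln* in both PBS groups but not in the LPS groups. In ZT13 PBS mice *Esam*, *Lsr*, *F11r*, *Ocln* and *Cgn* formed a chain in which each overlapped the next. In ZT1 LPS mice *Lsr*, *Esam*, *F11r* and *Jam2* did so, and in ZT1 PBS mice *Cdh5*, *Lsr* and *Esam*. In ZT13 LPS mice *Lsr* overlapped *Esam*, and *F11r* overlapped *Jam2*.

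**Figure D4:**
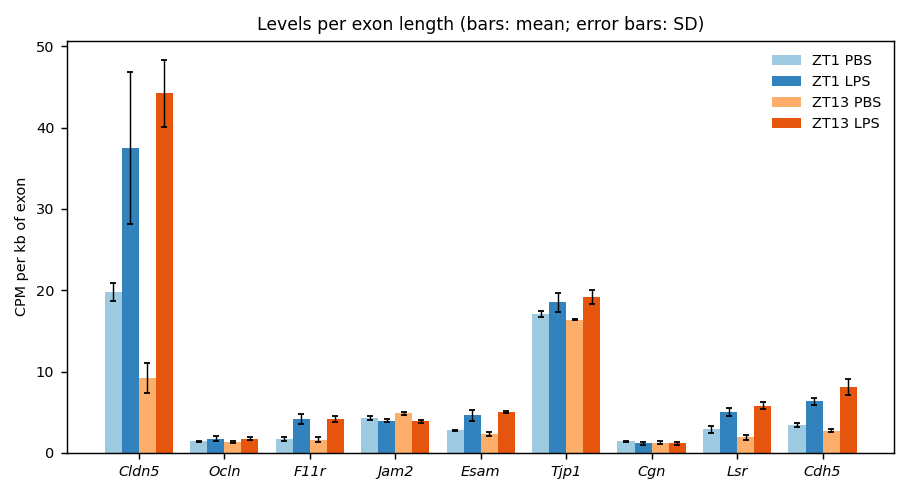
Mean CPM per kilobase of exon (y axis, from 0) of each junction gene in the 4 groups, with the SD as error bars. Cldn5 is highest in 3 groups and at 9.18 in ZT13 PBS, under Tjp1 at 16.4.

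To see which genes followed the same course over the 16 mice, each gene was centred on its own mean log2, and the root mean square of the difference between 2 genes was taken, so that 0 is the same course. All 16 mice, and thus the response to LPS, enter this measure, which is a description. *Cdh5* was followed most closely by *Rhoc* (0.09), *Col4a2* (0.12), a chain of basement membrane collagen, and *Robo4* (0.13), a receptor of endothelial cells and 1 of the 18 markers. For *Cldn5* the closest were *Lat2* (0.27), *Col4a1* (0.29) and *Mmp14* (0.30), all farther off than the nearest gene of any other junction gene. *Esam* ran with *Sparc*, *Sat1* and *Cavin1* (0.11 to 0.12), *F11r* with *Jak3*, *Syngr2* and *Hk2* (0.16 to 0.17), and *Lsr* with *Nod2*, *Itga6* and *Rhoc* (0.14 to 0.15). *Lat2* and *Nod2* were low genes, with group means of 0.477 to 2.78 CPM and 0.572 to 2.26 CPM, where the scale of log2(CPM + 0.5) understates changes.

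The genes that moved least had close companions of other kinds, since small changes leave small differences. *Jam2* ran with *Mtmr9*, the oligodendrocyte gene *Bcas1* and *Frrs1l* (0.07 each), *Tjp1* with *Srrm2*, *Chsy1* and *Pbx2* (0.05 each), *Ocln* with *Shroom4*, *Rgma* and *Arhgef26* (0.10 to 0.11), and *Cgn* with *4732440D04Rik*, *Czib* and *Rnd2* (0.12 each). Among the 9 junction genes the closest pairs were *Ocln* with *Tjp1* (0.14), *Cdh5* with *Lsr* (0.16) and *Jam2* with *Cgn* (0.19), and the farthest was *Cldn5* with *Jam2* (0.98). The root mean square of a gene about its own mean was 0.137 for *Jam2*, 0.178 for *Cgn*, 0.102 for *Tjp1* and 0.212 for *Ocln*. *Jam2* and *Cgn* thus differed by more than either gene varied, and *Ocln* and *Tjp1* by more than *Tjp1* varied.

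Of 28 other tight junction genes 27 were in the table and 25 passed the filter. At ZT1 3 passed the test (limma) and all of them fell with LPS, where 5.15% of all genes fell. They were the scaffold *Magi1* (-0.30), the polarity kinase *Prkcz* (-0.20) and the angulin *Ildr2* (-0.18). At ZT13 4 of the 25 rose and 5 fell, where 19.2% of all genes rose and 9.4% fell. Those that rose were *Cgnl1* (1.04, SE 0.16), the cingulin-like protein of endothelial and epithelial junctions, *Cldn11* (0.34), the claudin of myelin, *Amotl1* (0.28) and *Ybx3* (0.22). Those that fell were *Cldn10* (-0.44), *Magi1* (-0.29), *Cldn12* (-0.29), *Prkcz* (-0.19) and *Ildr2* (-0.18). The median log2 difference over the 25 was -0.04 at ZT1 and -0.10 at ZT13, beside 0.04 and 0.05 over all genes, and none passed between the LPS groups, between the PBS groups or for the interaction.

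Of 20 partners of adherens junctions, 4 rose and 2 fell at ZT1, and 10 rose and 3 fell at ZT13, where 11.1% of all genes rose and 5.15% fell at ZT1, and 19.2% rose and 9.4% fell at ZT13. *Vasp*, which extends actin filaments, rose most, by 0.86 (SE 0.14) at ZT1 and 1.63 (SE 0.11, limma adjusted p = 9.2e-08) at ZT13. *Ctnna1*, the alpha-catenin that links cadherins to actin, rose by 0.41 and 0.57, and the GTPase *Rap1b* by 0.26 and 0.40. *Vcl*, which encodes vinculin, rose by 0.29 and 0.33, and *Nectin2* (0.55) and *Ptprb* (0.49), the phosphatase that binds VE-cadherin and is also 1 of the 18 markers, rose at ZT13. *Nectin3* fell by 0.29 and 0.42 and *Pkp4* by 0.27 and 0.26, and *Nectin1* fell by 0.15 at ZT13 with LPS and by 0.24 from ZT1 to ZT13 in PBS mice. The median over the 20 was 0.05 at ZT1 and 0.15 at ZT13, and none passed between the LPS groups or for the interaction.

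Markers of other cells that could carry junction genes were read in the same fits, in which 11.1% of all genes rose and 5.15% fell at ZT1, and 19.2% rose and 9.4% fell at ZT13. The 9 mural cell markers had 2 that rose at ZT1 and 4 at ZT13, with summed levels of 156 to 199.6 CPM at ZT1 LPS and 176.5 to 216 CPM at ZT13 LPS, overlapping the 157.5 to 190.0 CPM of the PBS mice. Of 6 fibroblast markers 3 rose at ZT1 and 4 at ZT13. Of 8 astrocyte markers 4 rose at ZT1, and 5 rose and 1 fell at ZT13. All 8 microglial markers passed, 6 higher and 2 lower at each time. Of 7 oligodendrocyte markers, which share *Cldn11* with the tight junction list, 1 rose and 2 fell at ZT1, and 2 rose and 4 fell at ZT13. Of 8 tested epithelial and choroid plexus markers 1 rose at ZT13 and none at ZT1, and their sum varied from 15.8 to 969 CPM between mice. Of 6 neuronal markers 3 fell at ZT13. The part of these cells in the junction genes was not tested.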

How the data were processed

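Total RNA of 16 cortices was depleted of ribosomal RNA and sequenced. The deposited table holds CPM that the authors scaled to library totals, so that each column sums to 1000000. The submitters' processing notes name bcl2fastq, DRAGEN 4.0.3-8 and GRCm38, and their roles and the strand setting are not given in the sources used here. Of 55774 lines 287 repeated a gene with identical values and were removed. The step of the lowest values gave 20251840 to 29112758 reads on genes per sample, so that 3 reads were 0.103 to 0.148 CPM. Of values up to 20 reads, 80.7% to 82.8% were whole (within 0.01 reads), so counts were not recovered and no count test was run. These depths cover counting error only.

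Groups were taken from the titles (AM and PM read as ZT1 and ZT13). The treatment field goes against the titles for 12 of 16 samples. A gene was tested if 3 or more samples reached 1 CPM, on log2(CPM + 0.5), which understates the change of low genes, with limma 3.58.1 (R 4.3.3, intensity trend in the prior variance). P-values were adjusted over all genes by the Benjamini-Hochberg method and called under 0.05. Each pair of groups was fitted by itself and the interaction on all 16 mice. SE is that of the fit and ± the SD between mice. The fits were tested on simulated data with independent noise of equal spread in all groups. That setting does not cover the unequal spread of the groups here.

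Every junction gene is named. Of the other tight junction genes and the adherens junction partners, up to 5 called genes per list, direction and comparison with the largest differences are named, and for each junction gene the 3 genes most like it. A further tight junction gene is not reported here and is in none of the list counts. Markers named for their level, a difference or an interaction were picked after their values were seen. The genes and lists were chosen with earlier results of these data known. Of the genes 55227 matched GENCODE M21 (GRCm38), which gave coordinates and exon lengths. Upstream sequences are from RefSeq (GRCm38.p6), where 6 of the 9 genes had an entry.

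The alternatives were pseudocounts of 0.1 and 1, no filter on low values, a filter at 5 CPM, quantile normalization, median-of-ratios factors, centring on 18 endothelial markers, 1 fit over all mice, quality weights for each sample, a prior variance without the trend, a block for the replicate number, leaving out each mouse, and *Ttr* as a covariate. Tables were made in Python 3.11.15 with numpy 2.4.6 and pandas 2.3.3, and figures with matplotlib 3.10.9.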

Additional observations from a re-analysis of the deposited data

Results flagged for a closer look

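For *Cdh5* the ZT13 LPS replicate 1, at 27.0 CPM, stood apart from the other 4 mice of its group, its gap to the next being 0.714 of the whole range. This check was made in 18 groups of junction gene levels, and chance marks about 1 in 20 groups.

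For 2 junction genes the response to LPS differed between the times of day by a test of the difference itself. The log2 response of *Cldn5* was larger at ZT13 by 1.36 (limma adjusted p = 0.013), and that of *Cdh5* by 0.67 (adjusted p = 0.036). Of all genes tested, 0.122% passed in that direction and 0.0371% in the other. Both calls were lost without a filter on low values and without the intensity trend. That of *Cdh5* held in 3 of the 16 fits that left out a mouse.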

How the results depend on the processing

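The main limits are 3 PBS mice per time and low levels of *F11r*, *Lsr*, *Ocln* and *Cgn*. The counts of junction genes called stayed at 4 to 7 at ZT1 and 7 to 8 at ZT13 under every alternative (with endothelial centring 1 higher and 4 lower, and 3 higher and 4 lower), with 5 to 6 and 7 to 8 when 1 mouse was left out. Between the LPS groups the count was 1 in place of 0 (*Cdh5*) with the single fit and with sample quality weights, and 0 to 1 when 1 mouse was left out. Between the PBS groups it was 0 in place of 1 with no filter and with no intensity trend, 2 with endothelial centring, and 0 to 1 when 1 mouse was left out. For the interaction it was 0 in place of 2 with no filter and with no intensity trend, 1 with quantile normalization, 1 with endothelial centring, 3 (with *Lsr*) with median-of-ratios factors, sample quality weights and the *Ttr* covariate, and 0 to 3 when 1 mouse was left out. The cause of these shifts was not tested.

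Centring on the endothelial markers turned the sign of differences, since it moves the median of all genes. For LPS against PBS these were *Ocln* (-0.47 at ZT1, -0.83 at ZT13), *Tjp1* (-0.62, -0.99) and *Esam* (-0.052, -0.15). Between the LPS groups they were *Cldn5* (-0.06), *Ocln* (-0.30), *Tjp1* (-0.28), *F11r* (-0.31), *Esam* (-0.20) and *Lsr* (-0.12). Between the PBS groups they were *Ocln* (0.059), *Tjp1* (0.088) and *F11r* (0.042), and for the interaction *Ocln* (-0.36), *Tjp1* (-0.37), *F11r* (-0.35), *Esam* (-0.10) and *Cgn* (-0.34). The remaining changes of sign were in values near 0. Between the LPS groups *Ocln* was at -0.019 with quantile normalization and -0.057 with sample quality weights, and *F11r* at -0.035 with quantile normalization, -0.034 with sample quality weights and -0.004 with the *Ttr* covariate. Leaving out 1 mouse there gave -0.046 to 0.087 for *Ocln*, -0.077 to 0.067 for *F11r*, -0.037 to 0.006 for *Jam2* and -0.116 to 0.025 for *Cgn*. For *F11r* it gave -0.218 to 0.028 between the PBS groups and -0.013 to 0.233 for the interaction. No call changed direction except under endothelial centring.

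Samples of different groups that share a replicate number are not known to be paired. Their deviations correlated between -0.20 and 0.33 over 20 pairs, 3 of them over 0.1, and 4 of 16 samples were most like one with their own number. With the replicate number as a block the count for the interaction was 1 in place of 2 (*Cdh5*, limma adjusted p = 0.064), and the other counts were 5, 8, 0 and 1 as before.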
